A study of Mus musculus with 10 samples.

Results

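The thrombospondins and other matricellular proteins were described here from 10 genes chosen by symbol, Thbs1, Thbs2, Thbs3, Thbs4, Sparc, Sparcl1, Tnc, Postn, Tgfbi and Fn1. All 10 were found among the 55450 genes of the count table, and all 10 had enough counts to be tested. RNA came from peelings of mouse corneal endothelium, the inner lining of the cornea, which keeps the stroma clear by removing water. The KO group was Slc4a11-/-, lacking both intact copies of Slc4a11, a membrane transporter of this layer, and how the allele was made is not stated in the labels. The WT group was Slc4a11+/+. All mice were C57BL/6 and 12 weeks old, and each of the 5 KO and 5 WT libraries pooled 6 peelings from 3 animals, and replicate error is therefore that of pools. The study asked how expression in the endothelium differs without Slc4a11.

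Matricellular proteins are secreted into the matrix, where they bind cells, collagens and growth factors rather than bearing load themselves. Thrombospondins bind the receptors CD36, CD47 and several integrins, and thrombospondin 1 can activate latent TGF-beta. SPARC binds collagen, tenascin-C and periostin are typical of growing or healing tissue, and fibronectin, encoded by Fn1, is an adhesive fibrillar glycoprotein to which many of the others bind.

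Promoter windows of 250 bases before an annotated start were held by the RefSeq table (GRCm38.p6) for 7 of the 10 genes, in 9 windows. There was no window for Thbs1, Sparcl1 and Fn1, so of the genes that rose or fell only Postn is covered. Of the 9 windows, 3 are shown, because Postn was a gene that rose and because Thbs2 and Thbs4 had library-to-library profiles that moved together. Each is written in its own direction, 5′ to 3′. Capitals mark matches on either strand to the TATA box (TATAAA), the Smad element (CAGAC), the TEAD element (GGAATG), the AP-1 site (TGANTCA) and the GC box (GGGCGG). Postn is shown at chr3:54360857-54361106, plus strand, Thbs2 at chr17:14694263-14694512, minus strand, and Thbs4 at chr13:92794819-92795068, minus strand.
Postn: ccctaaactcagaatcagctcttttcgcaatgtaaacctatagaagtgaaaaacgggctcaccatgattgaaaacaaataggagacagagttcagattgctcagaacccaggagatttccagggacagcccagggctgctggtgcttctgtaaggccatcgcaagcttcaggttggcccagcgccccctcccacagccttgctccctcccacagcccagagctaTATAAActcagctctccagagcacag
Thbs2: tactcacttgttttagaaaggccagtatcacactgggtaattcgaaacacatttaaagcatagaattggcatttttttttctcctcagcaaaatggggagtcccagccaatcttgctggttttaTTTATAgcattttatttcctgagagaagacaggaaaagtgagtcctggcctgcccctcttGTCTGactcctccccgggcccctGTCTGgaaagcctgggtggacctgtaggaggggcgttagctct
Thbs4: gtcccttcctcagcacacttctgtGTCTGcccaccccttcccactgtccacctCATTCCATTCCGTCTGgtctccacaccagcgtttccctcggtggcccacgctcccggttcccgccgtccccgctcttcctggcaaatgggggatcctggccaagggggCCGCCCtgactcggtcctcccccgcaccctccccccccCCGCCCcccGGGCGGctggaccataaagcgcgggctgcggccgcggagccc
The Postn window shown had a TATA box that began 26 bases before the start and no other match. The other Postn window, farther upstream and not shown, had a Smad element but no TATA box and no other match. The Thbs2 window had a TATA box match 126 bases before the start and a pair of Smad elements at 66 and 43 bases. The Thbs4 window had no TATA box but 3 GC boxes, 2 Smad elements and 2 TEAD elements, where the TEAD matches share a base and adjoin a Smad element in 1 run of capitals. Over the 9 windows, 4 held a TATA box, 6 a Smad element, 1 a TEAD element and 5 a GC box. The 2 Tnc windows overlap and share a TATA box and a GC box, so the distinct matches come from 3 and 4 genes. The shares holding each motif among all 32851 windows of this length were 12.4%, 42.2%, 12.6% and 32.7%. The AP-1 site was in none of the 9, against 6.75% of all windows, and the CArG box, searched too, was in none, against 1.47%. These matches are letters in the windows, and binding was not measured.

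Library totals ran from 36026193 to 51008996 counts. Slc4a11 itself stood at 95.4 ± 16.2 CPM in KO and 3791 ± 362 CPM in WT (SD, n = 5 each), where CPM is a count scaled to library size. Endothelial markers summed to 23275 to 28010 CPM in KO and 23791 to 27169 CPM in WT. Of 12, the scarce Car2 rose and Slc16a3 (20.7 CPM in KO, 82.0 CPM in WT) and Atp1b1 fell. Keratocyte markers of the stroma were abundant too, at a summed 69549 to 93133 CPM in KO and 66668 to 101794 CPM in WT, and of 13, the scarce Thy1 rose and Kera fell (log2 fold change -0.48, edgeR adjusted p = 0.0300). Epithelial markers stood apart in KO 5, KO 1 and KO 2, at a summed 3559, 1852 and 584 CPM. KO 4 had 217 CPM and KO 3 had 55.1 CPM, against 53.4 to 190.1 CPM in WT, and 9 of the 12 epithelial markers rose. Values without KO 1, KO 2 and KO 5 are therefore given beside each call among the 10 genes. In bulk RNA, fewer cells of a type and less RNA per cell cannot be told apart.

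Of the 10 genes, 2 rose, 1 fell and 7 did not pass the test (edgeR quasi-likelihood test, adjusted p under 0.05 over 17729 genes). Thbs1 rose 1.73-fold and Postn rose 1.40-fold, whereas Fn1 was 1.38-fold lower in KO. Of all genes tested, 15.3% were called, 7.59% as higher and 7.73% as lower in KO. With total counts in place of the scaled library sizes, 1555 genes rose and 1054 fell, against 1346 and 1370 with scaling. The libraries of the groups did not overlap for Thbs1 and Fn1, as for 12.0% of all genes tested. The median log2 fold change was 0.00 over all genes.

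**Figure D1:**
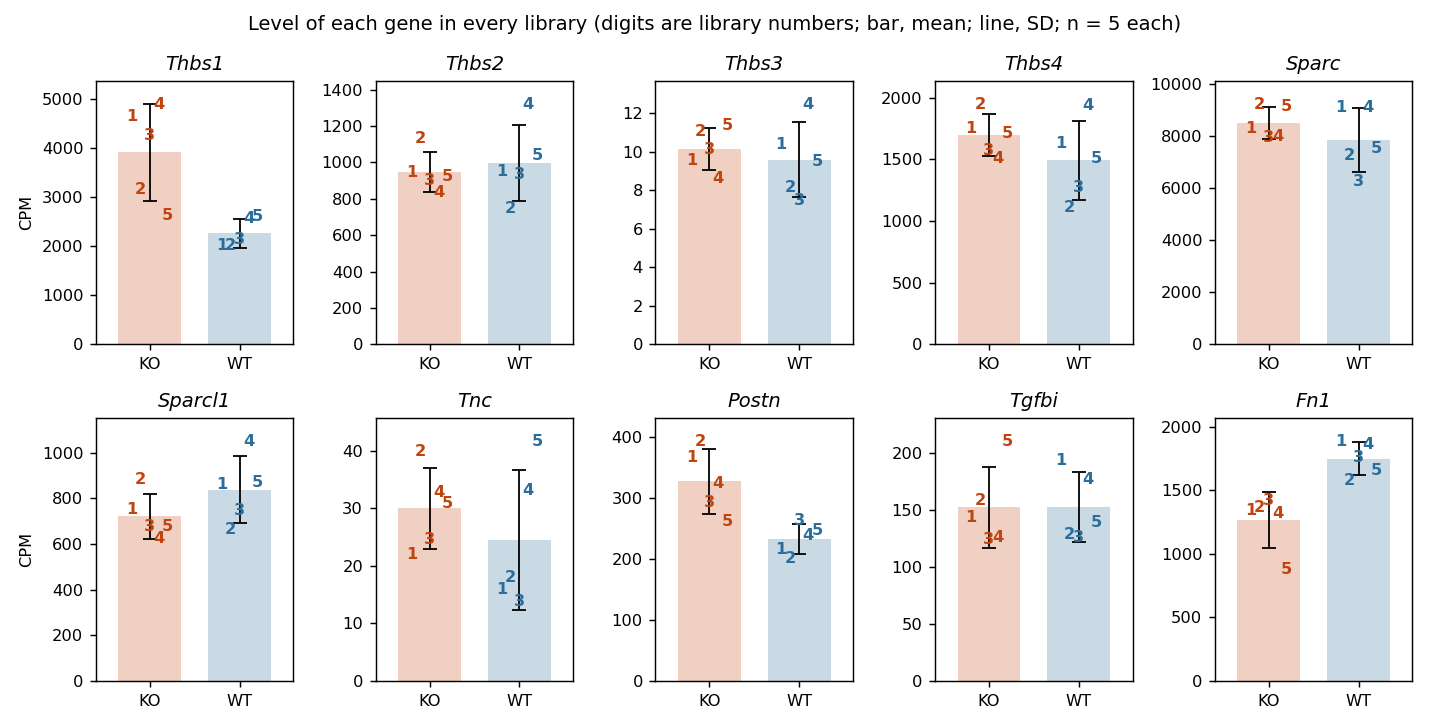
CPM of each gene in every library, KO on the left and WT on the right of each panel. Digits are library numbers, bars are means and lines are SDs (n = 5 each). Every KO digit lies above every WT digit for Thbs1 and below every WT digit for Fn1.

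**Figure D2:**
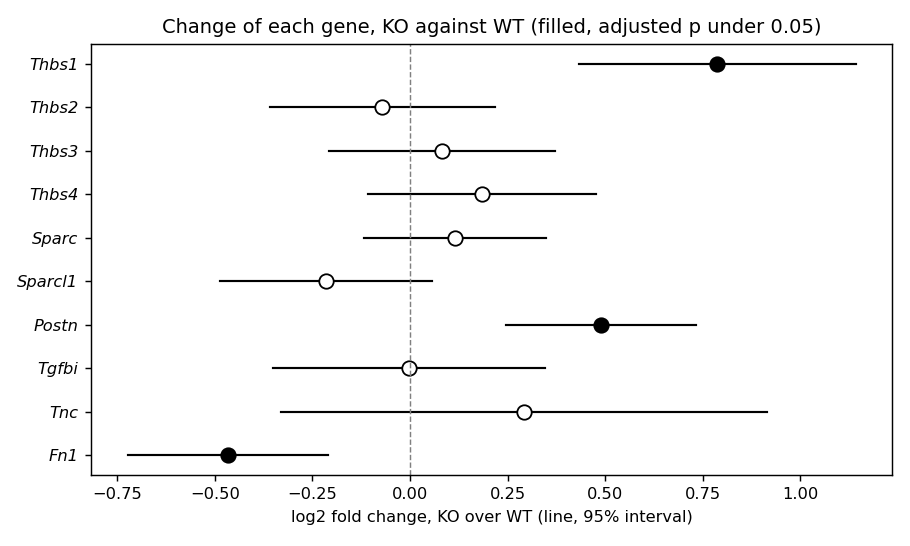
Log2 fold change of each gene, KO over WT, with its 95% interval (horizontal axis). Filled circles passed an adjusted p of 0.05. Thbs1 (0.79), Postn (0.49) and Fn1 (-0.47) have intervals that leave out 0.

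Among the thrombospondins, only Thbs1 passed the test. Thbs1 (ENSMUSG00000040152.8, chr2:118111876-118127133 in GRCm38, plus strand) encodes a trimeric thrombospondin known to inhibit vessel growth. It had 4652, 3150.3, 4256, 4879 and 2619 CPM in KO 1 to KO 5, against 2016, 2012, 2127, 2573 and 2599.8 CPM in WT 1 to WT 5. KO 4 and KO 1 were highest, and KO 5, the lowest KO library, lay just above WT 5, so the groups were separate by a narrow margin. The means were 3911 ± 981 CPM in KO and 2266 ± 297 CPM in WT (SD, n = 5 each; log2 fold change 0.79, SE 0.16, 95% interval 0.43 to 1.14, edgeR adjusted p = 0.00776). The spread in KO was 25.1% of the mean, against 13.1% in WT. Thbs1 was called in all 10 fits that left out a single library, with log2 fold changes of 0.70 to 0.91. When KO was represented by KO 3 and KO 4 alone, it was 1.02 (edgeR adjusted p = 0.00259).

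Thbs2 and Thbs4 had levels that overlapped between the groups throughout. Thbs2, the closest relative of Thbs1 and an inhibitor of vessel growth too, had 946, 1133, 902, 834 and 923 CPM in KO 1 to KO 5 and 948, 745, 931, 1317 and 1036 CPM in WT 1 to WT 5. WT 4 was the highest and WT 2 the lowest, and all KO libraries lay between them. The log2 fold change was -0.07 (95% interval -0.36 to 0.22, edgeR adjusted p = 0.755). Thbs4, a pentameric thrombospondin known from tendon and muscle, had 1750.0, 1942, 1573, 1509 and 1712 CPM in KO 1 to KO 5 and 1631, 1113, 1272, 1941 and 1508 CPM in WT 1 to WT 5. KO 2 and WT 4 were almost level at the top, and WT 2 was lowest again. Its log2 fold change was 0.19 (95% interval -0.11 to 0.48, edgeR adjusted p = 0.373). With the keratocyte marker level as a covariate, Thbs4 passed narrowly, at 0.21 (edgeR adjusted p = 0.0478). That fit called more genes, 1557 as higher and 1615 as lower in KO, against 1346 and 1370 without the covariate.

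Thbs3, which encodes another pentameric thrombospondin, was scarce, at 8.62 to 11.3 CPM in KO and 7.47 to 12.4 CPM in WT. The KO range lay within the WT range, and the log2 fold change was 0.08 (95% interval -0.21 to 0.37, edgeR adjusted p = 0.717). Thbs3 shares 318 exon bases with Mtx1 on the other strand, at 18.9 CPM, and whether counting used strand is not stated, so its level is uncertain. Comp, the remaining thrombospondin, known from cartilage, was at 4.05 ± 0.463 CPM in KO and 3.85 ± 0.406 CPM in WT (SD, n = 5 each; edgeR adjusted p = 0.714).

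Ratios within a library set relatives against each other, for the 6 pairs of thrombospondins, Sparcl1 over Sparc and Postn over Tgfbi. These tests were chosen after the levels had been seen. The ratio of Thbs1 to Thbs2 counts was 2.78 to 5.85 in KO and 1.95 to 2.70 in WT, without overlap, a log2 difference of 0.81. Its two-sided exact permutation p was 0.00794 (n = 5 each), the smallest that 252 assignments can give, and 0.0635 after adjustment over the 8 pairs. The ratio of Thbs2 to Thbs4 was 0.539 to 0.583 in KO and 0.581 to 0.732 in WT (log2 difference -0.26, exact permutation p = 0.0159, adjusted p = 0.0635). A lone pair at the smallest p cannot pass after adjustment over 8, so these tests could not settle whether Thbs1 and Thbs2 differed in response, and no pair passed. For Thbs1 over Thbs4 the log2 difference was 0.55, with an exact permutation p of 0.0794 (n = 5 each).

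Sparc and Sparcl1 did not pass the test. Sparc, a collagen-binding glycoprotein, was the most abundant of the 10 genes, at 8270.0, 9178, 7939, 7949.7 and 9110.2 CPM in KO 1 to KO 5 and 9087, 7228, 6253, 9082 and 7509.8 CPM in WT 1 to WT 5. The KO libraries stayed within a narrower band than the WT libraries, with a spread of 7.22% of the mean in KO and 15.8% in WT. The log2 fold change was 0.12 (95% interval -0.12 to 0.35, edgeR adjusted p = 0.492). Sparcl1, its relative known as hevin, had 749, 879.9, 677, 622 and 678 CPM in KO 1 to KO 5 and 859, 662, 744, 1048 and 871 CPM in WT 1 to WT 5. KO 4 was the only KO library below every WT library, and WT 4 was the highest of all. The log2 fold change was -0.21 (95% interval -0.49 to 0.06, edgeR adjusted p = 0.260). The ratio of Sparcl1 to Sparc was 0.0744 to 0.0959 in KO and 0.0915 to 0.119 in WT (exact permutation p = 0.0317, adjusted p = 0.0847 over the 8 pairs, n = 5 each).

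Postn and Tgfbi encode proteins built of FAS1 domains, and only Postn passed. Postn (ENSMUSG00000027750.16, chr3:54361109-54391037, plus strand), which encodes periostin, had 366, 392, 293, 323 and 261 CPM in KO 1 to KO 5, against 216, 200.4, 262, 239 and 247 CPM in WT 1 to WT 5. Of the 5 KO libraries, 4 lay above every WT library, and KO 5 lay just under WT 3. The means were 327 ± 53.2 CPM in KO and 233 ± 24.7 CPM in WT (SD, n = 5 each; log2 fold change 0.49, SE 0.11, edgeR adjusted p = 0.0130). The call was lost with the epithelial marker level as a covariate (log2 fold change 0.50, edgeR adjusted p = 0.0536), but not when KO 1, KO 2 and KO 5 were left out (0.41, edgeR adjusted p = 0.0474). The promoter shown above with its TATA box is the one next to the annotated gene start.

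Tgfbi, whose human counterpart is mutated in stromal dystrophies of the cornea, averaged 152 ± 35.2 CPM in KO and 152 ± 30.5 CPM in WT (SD, n = 5 each). KO 5 was the highest KO library at 209.9 CPM and WT 1 the highest WT library at 193 CPM. Its log2 fold change was 0.00 (95% interval -0.35 to 0.35, edgeR adjusted p = 0.993). The ratio of Postn to Tgfbi overlapped between the groups, at 1.24 to 2.57 in KO and 1.12 to 2.09 in WT (exact permutation p = 0.103, n = 5 each).

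Tnc, which encodes tenascin-C, was scarce and, in WT, the most uneven of the 10. It had 22.0, 39.8, 24.6, 32.7 and 30.9 CPM in KO 1 to KO 5 and 15.9, 18.0, 13.7, 33.0 and 41.5 CPM in WT 1 to WT 5. WT 4 and WT 5 stood well above the other WT libraries, and the groups overlapped. The spread was 23.4% of the mean in KO and 49.9% in WT. The log2 fold change was 0.29, with the widest interval of the 10 genes (95% interval -0.33 to 0.92, edgeR adjusted p = 0.522).

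Fn1 (ENSMUSG00000026193.15, chr1:71585520-71653200, minus strand), which encodes fibronectin, fell in KO. It had 1342, 1366, 1421, 1320.5 and 878 CPM in KO 1 to KO 5, against 1884, 1581, 1760.1, 1860.5 and 1660.0 CPM in WT 1 to WT 5. All KO libraries lay below all WT libraries, and KO 5 stood far under the other KO libraries. The means were 1265 ± 219.6 CPM in KO and 1749 ± 129 CPM in WT (SD, n = 5 each; log2 fold change -0.47, SE 0.12, edgeR adjusted p = 0.0205). Without KO 5 the log2 fold change was -0.36, and the call held (edgeR adjusted p = 0.00791). That was the lowest adjusted p of the 10 fits that left out a single library. Fn1 was called in all 10, but only narrowly without WT 4 (-0.44, edgeR adjusted p = 0.0474). The call was lost when KO 1, KO 2 and KO 5 were left out (-0.35, edgeR adjusted p = 0.113) and with the epithelial marker level as a covariate (-0.31, edgeR adjusted p = 0.221).

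KO 5 was the lowest KO library for Thbs1, Postn and Fn1 alike. It also had the highest summed epithelial markers of all libraries (3559 CPM) and the lowest summed endothelial markers (23275 CPM, against 26465 to 28010 CPM in the other KO libraries). With KO 3 and KO 4 alone, 2 of the 10 genes were called, Thbs1 and Postn, against 5.99% of all genes tested in that fit. With the epithelial covariate, 1 of the 10 was called, Thbs1, against 6.67% of all genes. The smooth muscle and pericyte list summed to 75.6 to 93.3 CPM in KO and 115 to 128 CPM in WT, but its genes differed in direction. Of 4 tested, Myh11 and Mylk fell. Acta2 (log2 fold change -0.23, edgeR adjusted p = 0.0959) and Lmod1 (0.10, edgeR adjusted p = 0.720) did not pass. Des, Cnn1 and Rgs5 were too scarce to test, and Rgs5 was higher in KO, at a mean of 0.556 CPM against 0.0668 CPM in WT. Of 5 vascular endothelial genes tested, Kdr fell (log2 fold change -0.52). The scarce Pecam1 (0.95), Cdh5 (0.89), Emcn (1.41) and Vwf (1.03) leaned the other way without passing. Of the other markers tested, 4 of 6 Schwann cell genes rose and 1 fell, 2 of 3 lens genes rose, and none of 8 immune and 3 pigment cell genes passed. The part of these cells in the changes of Thbs1, Postn and Fn1 was not tested.

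Levels of different genes were compared per kilobase of exon, with the exons of all annotated transcripts of a gene merged. Such a length can exceed that of a single transcript, and the order depends on it. In KO the order was Sparc (2241 CPM per kb), Thbs1 (644), Thbs4 (516), Sparcl1 (245), Thbs2 (135), Fn1 (108), Tgfbi (40.3), Postn (37.6), Tnc (3.86) and Thbs3 (2.101). In WT it was Sparc (2068 CPM per kb), Thbs4 (454), Thbs1 (373), Sparcl1 (285), Fn1 (149.7), Thbs2 (142), Tgfbi (40.4), Postn (26.8), Tnc (3.14) and Thbs3 (1.99). Thbs1 stood above Thbs4 in KO and below it in WT, but their ranges over libraries overlapped in both groups. Thbs2 and Fn1 also exchanged places, again with overlapping ranges in each. Per kb, Tgfbi and Postn overlapped in KO and were separate in WT. Before division by length, Postn counts were above Tgfbi counts in every library, at a ratio of 1.24 to 2.57 in KO and 1.12 to 2.09 in WT. Together the 10 genes took 1.69% to 1.82% of all counts in KO and 1.37% to 1.74% in WT.

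**Figure D3:**
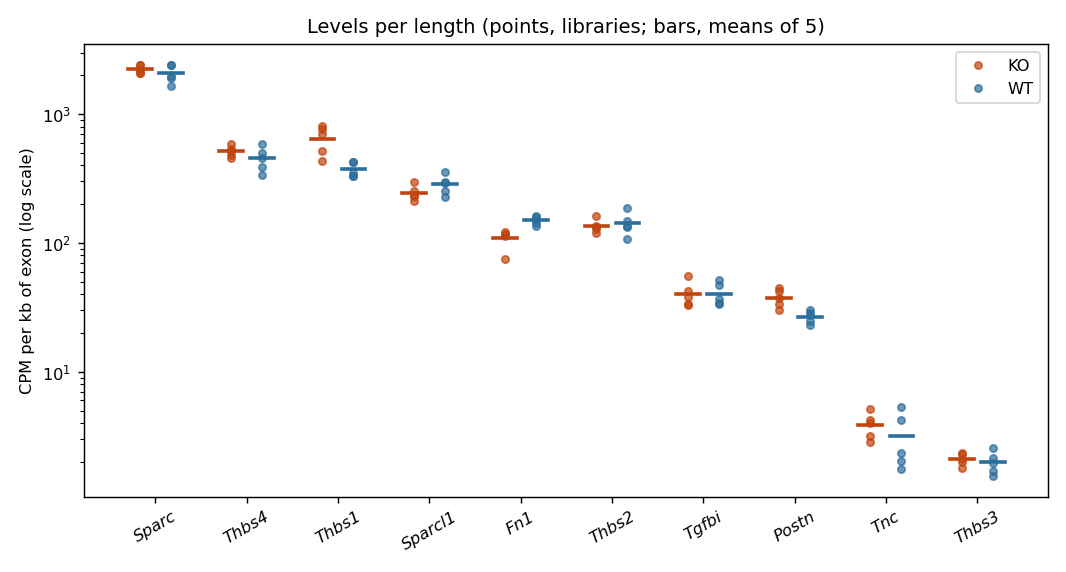
CPM per kilobase of exon on a log scale for each gene, KO left of WT. Points are libraries and bars are means of 5. Sparc is highest in both groups, at 2241 in KO and 2068 in WT, and Thbs3 is lowest.

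Libraries of the same genotype differed in ways that several of these genes shared. Deviations of log2 CPM from the genotype mean were correlated over the 10 libraries for all 45 pairs of genes and for each gene with 3 marker lists, 75 relations in all. The two-sided p values come from 14400 exact permutations within genotype and are adjusted over the 75. For Thbs2 and Sparcl1, Pearson's r was 0.96 (adjusted permutation p = 0.00521), Spearman's rho was 0.99 (adjusted permutation p = 0.0156), and r was 0.94 without the 2 libraries farthest from the median. For Thbs4 and Sparcl1, r was 0.95 (adjusted permutation p = 0.00781), rho was 0.94 (adjusted permutation p = 0.0247) and r was 0.90 without the 2 farthest. KO 2 and WT 4 were high and KO 4 and WT 2 low for all 3 of these genes. Thbs2 and Thbs4 had an r of 0.92 (adjusted permutation p = 0.0281), a rho of 0.90 (adjusted permutation p = 0.0439) and an r of 0.74 without the 2 farthest.

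KO 2 and WT 4 were also the highest of their groups, and WT 2 the lowest of all, for the mean level of the keratocyte markers, which include the proteoglycans Kera, Lum and Dcn. With the mean log2 level of those markers, Thbs4 had an r of 0.92 and a rho of 0.94 (adjusted permutation p = 0.0104 and 0.0247, r = 0.90 without the 2 farthest). Sparcl1 had an r of 0.90 and a rho of 0.89 (adjusted permutation p = 0.0290 and 0.0439, r = 0.77 without the 2 farthest). Of the 10 genes, 4 passed with the keratocyte markers by r, namely Thbs2, Thbs3, Thbs4 and Sparcl1. By rho, Thbs4 and Sparcl1 passed again, but Thbs2 and Thbs3 did not (adjusted permutation p = 0.0602 and 0.124). Sparc passed by rho alone (0.90, adjusted permutation p = 0.0439), with an r of 0.82 (adjusted permutation p = 0.0608). A positive r was found for 9 of the 10 genes. Thbs1 was the exception at -0.22, with a rho of -0.12 (permutation p = 0.558 and 0.767). Postn (r = 0.28, permutation p = 0.449) and Fn1 (r = 0.11, permutation p = 0.748) did not pass either. For Thbs1 and Fn1 these values pool opposite signs. Within KO alone r was -0.73 for Thbs1 and -0.17 for Fn1, and within WT alone it was 0.58 and 0.76. For Postn it was 0.36 in KO and 0.20 in WT. The relations within 1 genotype were not tested.

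**Figure D4:**
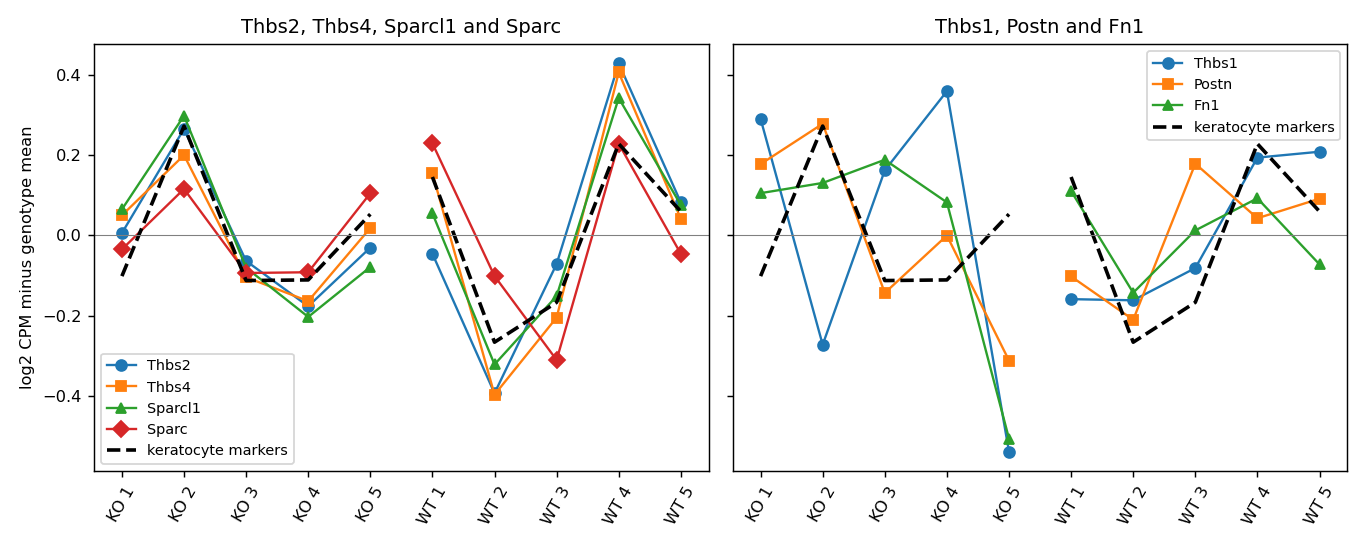
Log2 CPM minus the genotype mean (vertical axis) in each library, KO left of WT, with the mean of the keratocyte markers as a dashed line. On the left, Thbs2, Thbs4 and Sparcl1 run close to the dashed line. On the right, Thbs1 and Fn1 drop in KO 5, where the keratocyte markers do not.

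Sparc followed Tgfbi, with an r of 0.84 and a rho of 0.87 (adjusted permutation p = 0.00868 and 0.0247, r = 0.84 without the 2 farthest). Of the 45 pairs, 6 passed by r, and 4 of these by rho as well. Thbs1 and Fn1 had an r of 0.64 (permutation p = 0.115), which was 0.14 without the 2 farthest libraries, and a rho of 0.16 (permutation p = 0.724), so this relation rested on few libraries. None of the 10 genes passed with the epithelial markers, and 1 passed with the endothelial markers. That gene was Tgfbi, with an r of -0.83 (adjusted permutation p = 0.0464), a rho of -0.79 (adjusted permutation p = 0.0625) and an r of -0.59 without the 2 farthest. With the endothelial markers, Thbs1 had an r of 0.71 and a rho of 0.67 (permutation p = 0.0681 and 0.111), and an r of 0.82 without the 2 farthest. Fn1 had an r of 0.61 and a rho of 0.28 (permutation p = 0.177 and 0.495), and an r of 0.04 without the 2 farthest. Both pool opposite signs, with an r of 0.95 for Thbs1 and 0.84 for Fn1 within KO, and -0.33 and -0.72 within WT.

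The genes most like each of the 10 were taken from 10579 candidates by Pearson's r of the same deviations over 10 libraries, as a description with no test. They were Ddr1, a collagen receptor (r = 0.96), and Elovl7 (0.95) for Thbs1, and Ntn4, which encodes netrin-4 (0.98), and Chsy3 (0.98) for Thbs2. For Thbs4 they were Spon1 (0.98) and Col6a1, a type VI collagen chain (0.98), and for Sparcl1 they were Arsb (0.98) and Matn4, a matrilin (0.97). Thbs3 was most like C1ra (0.98) and Trabd2b (0.96), and Sparc was most like Laptm5 (0.98) and Npc2 (0.98). Tnc was most like Cilp (0.97), a cartilage matrix protein gene that itself rose in KO (log2 fold change 1.53, edgeR adjusted p = 3.06e-04), and Enpp1 (0.96). Postn was most like Kcnh5 (0.95) and Magt1 (0.94), Tgfbi like Nr1d1 (0.97) and Rps6-ps1 (0.96), and Fn1 like Neo1 (0.98) and Polr2a (0.98). Besides Cilp, Elovl7 rose (log2 fold change 0.69), and Chsy3 (-0.54), Nr1d1 (-0.50), Trabd2b (-0.30) and Arsb (-0.27) fell. Their edgeR adjusted p values ran from 0.00128 for Chsy3 to 0.0498 for Arsb. The highest r of 10579 candidates over 10 libraries can be large for unrelated genes too.

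Relatives, receptors and partners of these proteins were listed as 141 genes, of which 131 were tested, 15 rose and 20 fell. That is 26.7% called, beside 15.3% of all genes, and the median log2 fold change was 0.07, beside 0.00. The lists were chosen with earlier results of these data known, and no set test was run, so these shares are a description only. Without KO 1, KO 2 and KO 5, 6 rose and 9 fell, in a fit that called 5.99% of all genes. Among closer relatives, 2 of 13 tested proteins with type 1 repeats rose and 2 fell, and 2 of 5 SPARC relatives fell. Of 3 other tenascins, 1 rose and 1 fell, and neither of the 2 stabilins nor any of the 5 tested CCN genes passed. Spock1, a SPARC-related proteoglycan, was at 18.9 ± 4.98 CPM in KO and 39.5 ± 3.71 CPM in WT (SD, n = 5 each; log2 fold change -1.06, edgeR adjusted p = 0.00104). Smoc1, another SPARC relative, had a log2 fold change of -0.42 (edgeR adjusted p = 0.00375), and Tnxb, which encodes tenascin-X, one of -0.87 (edgeR adjusted p = 0.00475). Cfp, the complement factor properdin, rose and was scarce, at 3.87 ± 1.35 CPM in KO and 1.75 ± 0.413 CPM in WT (SD, n = 5 each; edgeR adjusted p = 0.00704).

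Of 25 tested receptors, 2 rose and 5 fell. Itga4, the alpha 4 integrin chain that binds fibronectin, fell to 7.77 ± 0.872 CPM in KO, against 18.4 ± 3.92 CPM in WT (SD, n = 5 each; log2 fold change -1.24, edgeR adjusted p = 2.01e-04). It shares 1124 exon bases with Cerkl on the other strand, at 2.74 CPM. Scarb2 had a log2 fold change of -0.41 (edgeR adjusted p = 8.88e-04). Among 21 TGF-beta genes, 1 rose and 4 fell. Smad2, a signal transducer of TGF-beta, had a log2 fold change of -0.26 (edgeR adjusted p = 0.01002). Plat, the tissue plasminogen activator, rose to 124 ± 12.5 CPM in KO, against 76.1 ± 11.2 CPM in WT (SD, n = 5 each; log2 fold change 0.71, edgeR adjusted p = 0.00122).

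Fibulins and other matricellular genes included 5 that rose and 1 that fell of 19 tested. Fbln7 and Vwa1 had log2 fold changes of 0.79 and 0.49, and Fbln2 one of -0.42 (edgeR adjusted p = 0.00706, 0.00886 and 0.00312). Of 18 fibril partners, Loxl4, a lysyl oxidase relative that cross-links collagen, fell (log2 fold change -0.69, edgeR adjusted p = 0.00123) and 17 did not pass. Of 19 proteases and inhibitors, 4 rose and 4 fell. Adamts1, a protease known to cleave thrombospondins, fell by 0.88 on the log2 scale and Timp2 by 0.41, and Mmp15 rose by 1.28 (edgeR adjusted p = 0.00394, 0.0105 and 0.0115). Without KO 1, KO 2 and KO 5, Smoc1, Fbln7, Vwa1, Smad2, Mmp15, Adamts1 and Timp2 were no longer called (edgeR adjusted p from 0.0537 for Fbln7 to 0.197 for Mmp15). That smaller fit called 5.99% of all genes, against 15.3% with all libraries. The calls of 7 other listed genes did not last when single libraries were left out. Of 10 such fits, Spon2, Calr and Tgfb3 failed in 7 each, Adamtsl1 in 6, Adamtsl3 in 4, Itga3 in 3 and Tnn in 2. The highest adjusted p of each in these fits ran from 0.0557 for Tnn to 0.108 for Adamtsl3, and came without WT 3, or for Calr without WT 2.

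**Figure D5:**
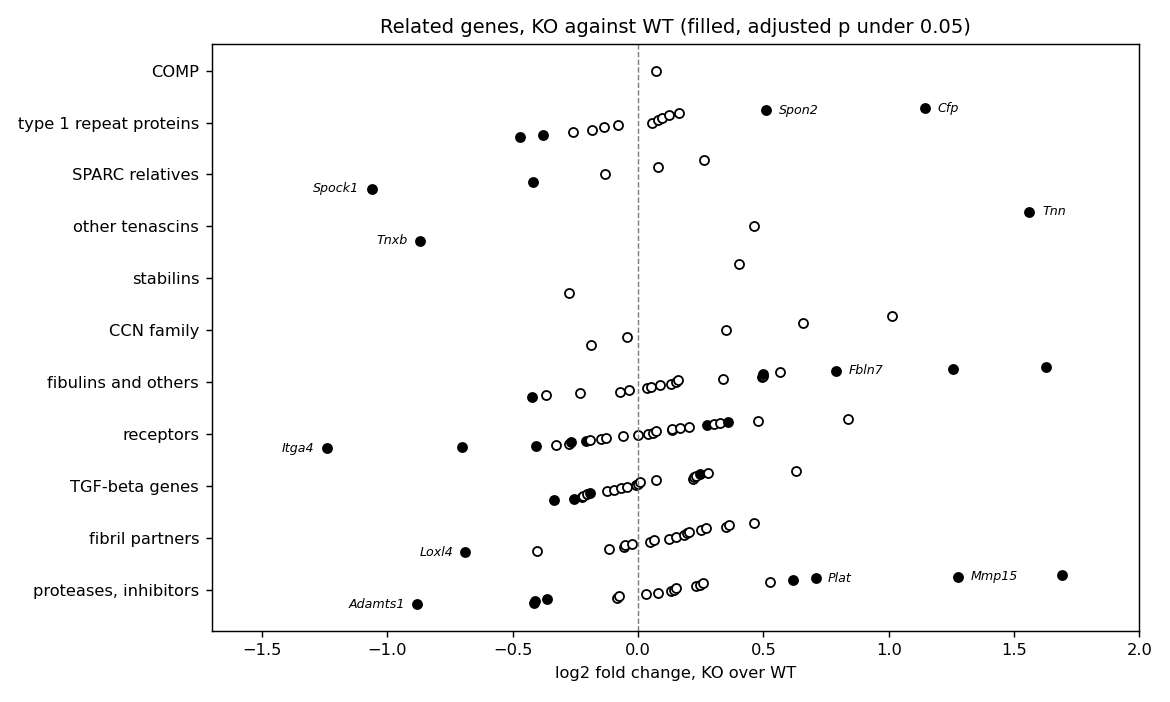
Log2 fold change of the tested related genes reported here, KO over WT (horizontal axis), by list. Filled circles passed an adjusted p of 0.05, and names mark genes beyond 0.5 that the naming rule chose. Itga4 is at -1.24 and Tnn at 1.56.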

How the data were processed

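Messenger RNA libraries from 10 pools of corneal endothelial peelings were compared, grouped by the genotype in their labels. The values used are raw read counts per gene, deposited by the authors. Per the submitters' processing notes, the tools were HISAT2 2.1.0, featureCounts, Subread 1.6.4, cutadapt 2.4 and Trim Galore 0.6.4, and the genome was GRCm38.p6. Per the labels' protocols, the library kit was stranded and selected polyadenylated RNA. Not given in the sources used here are the annotation release, how multi-mapping reads were treated and whether counting used strand. Gene symbols, coordinates and exon lengths come from GENCODE M21.

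The test was the edgeR 4.0.16 quasi-likelihood F test without covariates, in R 4.3.3, with genes kept by filterByExpr (minimum count 10, minimum total 15) and TMM scaling. Adjusted p values are Benjamini-Hochberg over all genes tested in a fit, 17729 with all libraries (31603 had at least 1 count) and 18435 with KO 3 and KO 4 alone, and for ratios and correlations over the 8 pairs and 75 relations. CPM uses the TMM-scaled library sizes. The common biological coefficient of variation was 16.3%, and total counts of 36026193 to 51008996 leave counting error small for all but the scarcest genes. Reads carry no molecular identifiers, so no counting intervals are given.

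The 10 genes and the lists of related genes and cell markers were chosen with earlier results of these data known. Named related genes were, in each list, the 2 called genes with the smallest p in each direction, or the most abundant tested gene where none was called. For likeness, genes had a mean of at least 5 CPM and a symbol that is not a predicted gene. Another gene chosen by this rule was counted in its list but is not reported here. Alternatives were DESeq2 size factors, total counts and upper quartile factors in edgeR, DESeq2 1.42.0, limma-voom (limma 3.58.1), no filter, a filter of 1 CPM in 5 libraries and the replicate number as a block. The others were each library left out, KO 3 and KO 4 alone, the mean log2 CPM of epithelial or keratocyte markers as a covariate, and an adjusted p under 0.01. The test was checked on simulated counts. Pairs of libraries within a genotype differed by more than sampling noise (chi-square over its degrees of freedom between 14.7 and 87.5). The labels name no batch. Genes on the other strand that share exon bases with Thbs1, Tnc and Fn1 were at 0.482 CPM or less.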

Additional observations from a re-analysis of the deposited data

Results flagged for a closer look

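Among the genes named by the rule, 72 groups of 5 libraries were screened for a library far from the other 4, and chance flags about 1 in 20 groups. The following values stood out. Fn1 was at 878 CPM in KO 5, against 1320.5 to 1421 CPM in the other KO libraries. Stab1 was at 18.0 CPM in KO 2, against 8.98 to 11.3 CPM in the other KO libraries. Fbln7 was at 4.17 CPM in KO 2, against 2.79 to 3.14 CPM in the other KO libraries. Plat was at 56.6 CPM in WT 3, against 77.3 to 84.0 CPM in the other WT libraries. The causes were not tested.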

How the results depend on the processing

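The log2 fold changes of Thbs1, Postn and Fn1 kept their direction under every alternative run. Thbs1 was called under each. Postn and Fn1 were not called at an adjusted p under 0.01 (0.0130 and 0.0205). At the 0.05 threshold, Postn missed with the replicate block (0.48, adjusted p = 0.0636) and with the epithelial covariate (0.50, adjusted p = 0.0536). Fn1 missed with KO 3 and KO 4 alone (-0.35, adjusted p = 0.113) and with the epithelial covariate (-0.31, adjusted p = 0.221). Thbs4 alone became called, with the keratocyte covariate (0.21, adjusted p = 0.0478).

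With the replicate block, 750 genes rose, 1 of the 10 genes rose and 12 related genes fell. The labels do not state whether the numbers pair the samples. Same-numbered libraries correlated at -0.42 to 0.09, which cannot show whether they were handled together. With KO 3 and KO 4 alone, 527 genes rose and 578 fell, 0 of the 10 fell, and 6 related genes rose and 9 fell. With the epithelial covariate, 532 rose and 650 fell, 1 of the 10 rose and 0 fell, and 5 related genes rose and 10 fell. At an adjusted p under 0.01, 450 rose and 574 fell, 1 of the 10 rose and 0 fell, and 4 related genes rose and 10 fell. Related genes that rose were 23 with total counts and 28 with the keratocyte covariate. Total counts moved the median of all genes to 0.03. With single libraries left out, 836 to 1532 genes rose and 965 to 1666 fell, 2 of the 10 rose and 1 fell in each fit, and 6 to 17 related genes rose and 14 to 20 fell. DESeq2 on all libraries gave Fn1 an adjusted p of 0.00101. The causes were not tested. Counts were lowest for Thbs3 and Tnc, with as few as 321 and 583 in a library.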
